A study of Mus musculus with 8 samples.

Results

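The chaperones of the cytosol and mitochondria were examined in mouse oligodendrocyte progenitor cells (OPCs) and in the oligodendrocytes (OLs) made from them. Members were taken by gene symbol from the deposited expression values: the subunits of the TRiC (CCT) chaperonin and of prefoldin, the cytosolic HSP90 and HSP70 families with HSP110, the mitochondrial HSP60 and HSP10, the small heat shock proteins, the J proteins and the BAG proteins, with Dnajb9, Dnajb11 and Dnajc3 of the endoplasmic reticulum (ER) left out. They number 63 of 10987 transcripts, each with a symbol of its own. Some subunits of these complexes, such as mitochondrial HSP70 and part of TRiC, are not analysed here.

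The OPCs were derived in culture from epiblast stem cells of male 129S/SvEv mouse embryos and were grown with 20 ng/mL bFGF and 20 ng/mL PDGFA, the bFGF being left out in the passages before differentiation. OLs were the same cells after differentiation with 40 ng/mL T3 (thyroid hormone), 100 ng/mL IGF-1, 100 ng/mL noggin, 10 ng/mL NT3 and 10 uM cyclic AMP. All groups shared the N2 Max and B27 supplements, were collected after 3 days and were lysed with emetine, which holds ribosomes in place, with the plates of a cell type pooled. Each of the 2 replicates per cell type gave an RNA-seq library of total RNA and a library of ribosome footprints, the mRNA fragments that ribosomes protect from micrococcal nuclease, so that 8 libraries were compared. The study describes its OL cultures as mostly oligodendrocytes, mature or still maturing, with OPCs left among them. Values are FPKM, fragments per kilobase of transcript (RNA-seq) or of coding sequence (footprints), scaled to the mapped reads of the library, and ribosome density (RD) is the footprint FPKM over the RNA-seq FPKM of the same culture.

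Chaperones bind unfolded or assembling proteins and keep them from aggregating. HSP70 works in cycles of ATP hydrolysis that J proteins start and that nucleotide exchange factors, among them BAG proteins and HSP110, complete, and HSP90 acts on clients that HSP70 hands over. TRiC is a double-ring chamber that folds actin, tubulin and other cytosolic proteins, prefoldin delivers some of these clients to it, and HSP60 with its lid HSP10 forms the corresponding chamber of the mitochondrial matrix. Many of these genes are switched on in stressed cells by the factor HSF1, which binds repeats of the unit GAA in alternating orientation. Oligodendrocytes extend long processes rich in tubulin, a client of TRiC, and make large amounts of myelin membrane protein.

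The stretches upstream of some member genes that hold such repeats are shown because such repeats stood upstream of genes that fell in OLs and of genes that did not pass the test, as given below. A pair of units on either strand (GAANNTTC or TTCNNGAA) was found in the promoters, 250 bases before to 50 bases after the start site, of 16 of the 55 members with a RefSeq promoter (29.1%) and of 4587 of 27025 genes in all (17.0%). With 3 units (GAANNTTCNNGAA or TTCNNGAANNTTC, whose matches each contain a match of the shorter motif), the numbers were 4 of 55 members (7.27%), namely Dnajb6, Hspd1, Hspe1 and Hsph1, and 179 genes in all (0.662%). Hspd1 and Hspe1 are counted apart in both numbers though they share the same stretch. Members without a RefSeq promoter, among them Hsp90aa1, Hsp90ab1 and Hspa8, were not searched. Hspd1 and Hspe1, which encode HSP60 and HSP10, lie head to head on chromosome 1 with start sites 108 bases apart, and the stretch between them at chr1:55088053-55088082, shown on the strand of Hspe1, is also exonic in an alternative Hspd1 transcript. The Dnajb6 stretch is at chr5:29735832-29735884 (plus strand), that of Hspb1 at chr5:135887782-135887849 (plus strand), and those of Hspa1a and Hspa1b at chr17:34972233-34972280 and chr17:34959315-34959362 (both minus strand), with the same bases in both. Coordinates are GRCm38 and the sequences are from RefSeq (GRCm38.p6). Capitals mark the bases of each pair of units.
Hspe1 and Hspd1: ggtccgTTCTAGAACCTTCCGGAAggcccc
Dnajb6: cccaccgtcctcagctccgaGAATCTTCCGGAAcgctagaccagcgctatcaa
Hspa1a and Hspa1b: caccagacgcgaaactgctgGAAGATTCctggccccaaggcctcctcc
Hspb1: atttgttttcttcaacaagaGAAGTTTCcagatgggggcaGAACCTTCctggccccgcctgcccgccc

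Depth, estimated from the smallest steps between low values, ranged from 77.9 to 249.2 megabases aligned in a library, with a possible factor of 2, and OL replicate 2 was the shallowest in both kinds of library. The oligodendrocyte markers Cnp and Mag were high where the labels say OL, with RNA-seq levels of 27.1 and 28 FPKM (Cnp) and 0 and 0 FPKM (Mag) in OPCs beside 1325 and 1118 FPKM (Cnp) and 370.6 and 317.2 FPKM (Mag) in OLs. The OPC marker Pdgfra went against its name and was higher in OLs (53.5 and 31.3 FPKM in OPCs, 105.5 and 100.6 FPKM in OLs), the listed microglial and pluripotency markers each summed to at most 0.501 FPKM in an RNA-seq library, and Gfap, an astrocyte marker, was at 0.155 and 0 FPKM in OPCs and 14.2 and 2.11 in OLs. The astrocyte marker Slc1a2 was at 13.6 and 10.6 FPKM in OPCs and 47.6 and 36.5 in OLs (adjusted p = 0.00416), and the 5 listed neuronal markers summed to 29.8 and 21.9 FPKM in OPCs and 69.1 and 75.5 in OLs, with Dcx and Tubb3 past the threshold (adjusted p = 0.00367 and 0.00867). The 4 listed markers of proliferation summed to 346 and 478 FPKM in OPCs and 116 and 135 in OLs. These are bulk cultures, in which fewer cells of a type and less RNA per cell cannot be told apart, and the part of proliferation or of other cells in the results was not tested.

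In RNA-seq, 18 of the 56 members that could be tested changed between OPCs and OLs, 15 of them lower and 3 higher in OLs. Of all 8346 transcripts tested, 33.2% changed, 20.2% lower and 13% higher, and the members' share of 32.1% was near that of transcripts in general. In footprints 9 of 55 tested members (16.4%) changed, 8 lower and 1 higher, beside 23.6% of all 8342 transcripts (10.8% lower, 12.8% higher). With the replicates paired, 25 of 56 members passed in RNA-seq beside 39.8% of all transcripts, and 13 of 55 passed in footprints beside 20.8%, so that the members' footprint share lay under that of all transcripts unpaired and above it paired. In RNA-seq the median log2 fold change of the members was -0.33, beside -0.23 over all transcripts, and in footprints it was -0.26, beside -0.16. Relative to the RNA-seq median of all transcripts, the change was -1.65 for Hspd1, -0.69 for Tcp1, -0.52 for Hsp90ab1 and 1.25 for Bag1. With each library scaled by its median ratio, which moves the RNA-seq median of all transcripts to -0.05, 14 members passed in RNA-seq, 8 lower and 6 higher, 11 of them among the 18, and the share of higher transcripts among all calls moved from 39.1% to 51.5%. Changes were called with limma on log2(FPKM + 0.1), with a minimum mean of 1 FPKM, at a Benjamini-Hochberg adjusted p under 0.05 over all transcripts tested. Of the 18 RNA-seq calls, 3 remained without OPC replicate 1, 0 without OPC replicate 2, 8 without OL replicate 1 and 7 without OL replicate 2, and of the 9 footprint calls 0, 0, 6 and 2 remained. Such calls rest on a spread shared across transcripts, since an exact two-sided permutation test of 2 against 2 replicates cannot give a p below 0.333.

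**Figure D1:**
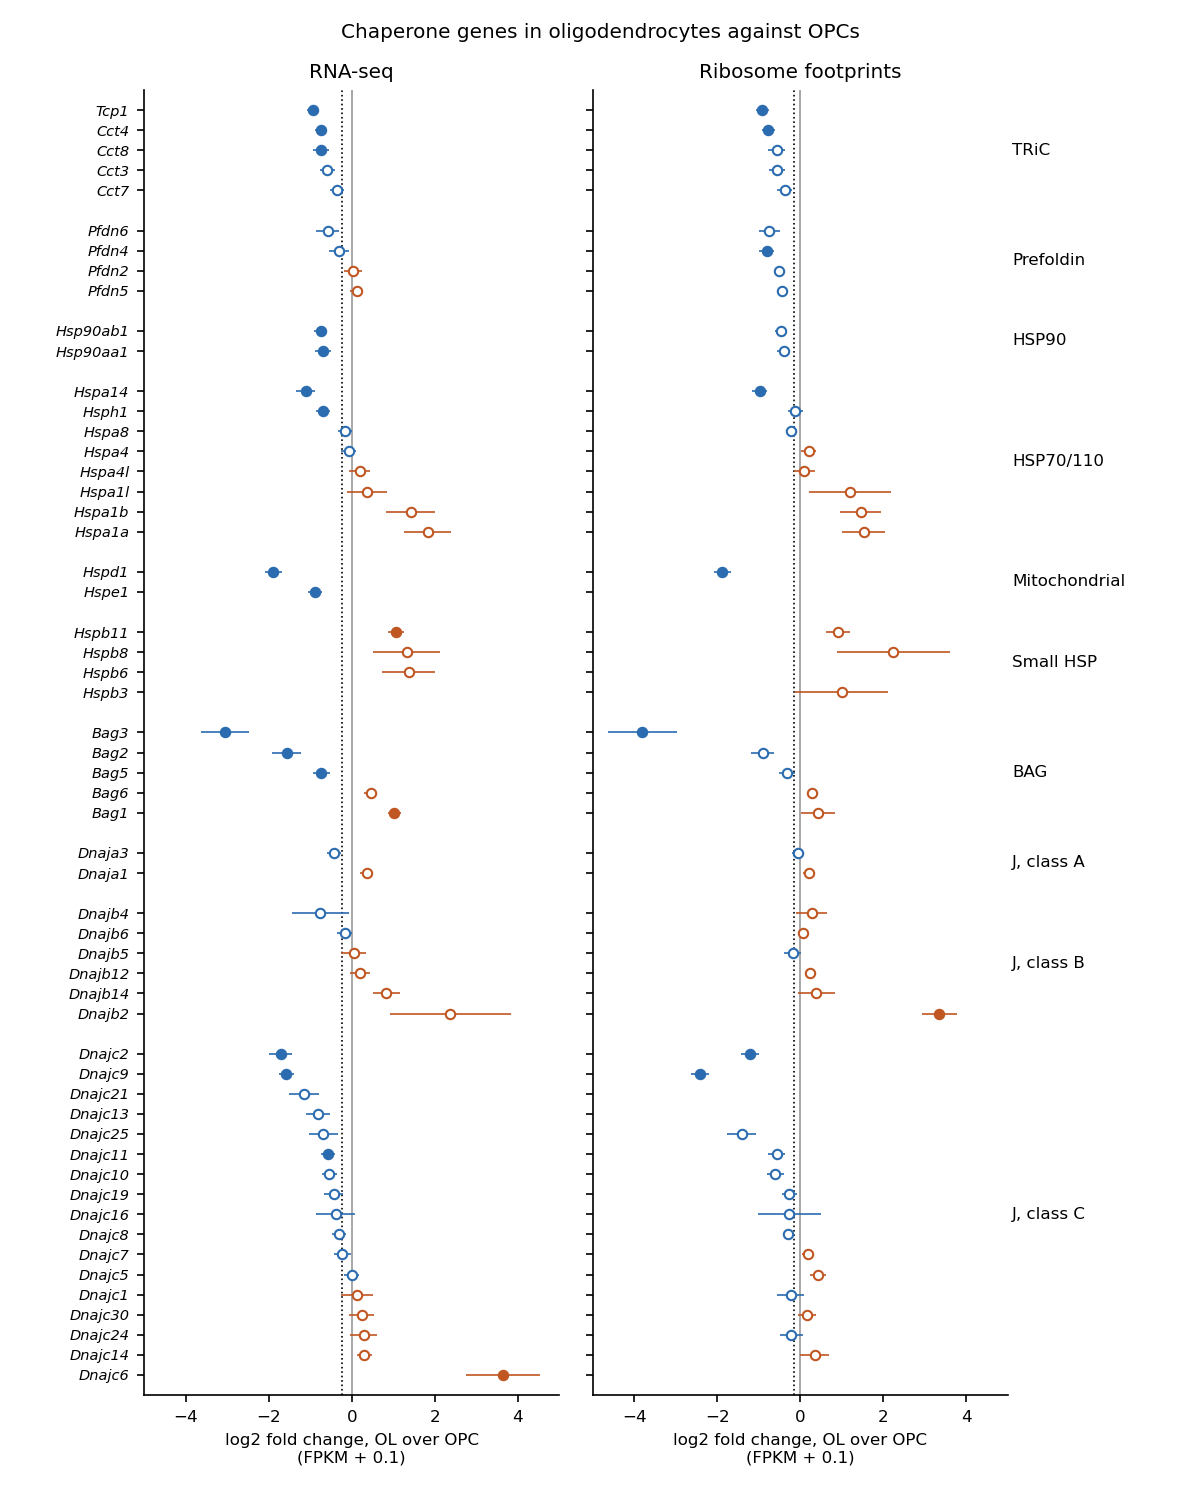
Log2 fold change (x axis, OL over OPC, on FPKM + 0.1) of the tested members in RNA-seq (left) and ribosome footprints (right), grouped by role; bars are standard errors, filled points passed the adjusted threshold of 0.05, blue is lower and orange higher in OLs, the dotted line is the median of all transcripts, and genes listed at 0 in a library of that kind are not drawn. TRiC, HSP90 and the mitochondrial genes lie left of the dotted line in RNA-seq, and Bag1 and Bag3 lie on opposite sides.

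The subunits of TRiC were lower in OLs. Among the 5 measured subunits, Tcp1, Cct4 and Cct8 fell in RNA-seq, and Tcp1 and Cct4 fell in footprints as well. That is 60% in RNA-seq and 40% in footprints, beside 20.2% and 10.8% of all transcripts lower. Tcp1, the subunit also called CCT1, had 323.8 and 321.4 FPKM in OPCs and 163.9 and 176 in OLs in RNA-seq, and 615.8 and 736.1 FPKM against 331.1 and 385.4 FPKM in footprints. All OL values lay well under the OPC values, and the groups did not overlap in either measurement. In RNA-seq its log2 fold change was -0.93 (SE 0.14, adjusted p = 0.00676), and in footprints it was -0.91 (SE 0.15, adjusted p = 0.0248). The Tcp1 transcript overlaps Acat3 on the opposite strand by 571 bases. Cct4 had 191.3 and 191.2 FPKM in OPCs and 111.4 and 118 in OLs in RNA-seq, a log2 fold change of -0.74 (SE 0.14, adjusted p = 0.013), and -0.77 in footprints (SE 0.16, adjusted p = 0.0376). Cct8 had 166.1 and 209.8 FPKM in OPCs and 101 and 124.4 in OLs in RNA-seq (adjusted p = 0.033), and its footprints, at 369 and 477.8 against 249.9 and 319.2 FPKM, did not pass (adjusted p = 0.125, and 0.0231 with the replicates paired).

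Cct3 and Cct7 had lower values in OLs without passing the unpaired test with the settings given above. In RNA-seq, Cct3 did pass with a minimum mean of 5 FPKM, and with 1 FPKM added in place of 0.1. Cct3 had 323.3 and 358.8 FPKM in OPCs and 202.4 and 255.2 in OLs in RNA-seq (adjusted p = 0.0505, and 0.0129 with the replicates paired), and Cct7 had 237.5 and 217.8 against 162.1 and 194 FPKM (adjusted p = 0.141). In footprints, neither passed unpaired (adjusted p = 0.109 and 0.208) and both passed with the replicates paired (0.0203 and 0.0408). Over the 5 subunits the median log2 fold change in RNA-seq was -0.73, and in footprints it was -0.57. The subunits, which enter each ring in equal number, differed within a library by 1.88 to 2.16 times from lowest to highest in RNA-seq and by 1.54 to 1.91 times in footprints. Of the 3 calls in RNA-seq, 1 remained without OL replicate 1 and 0 without any other replicate, with adjusted p between 0.047 and 0.182 and the same sign throughout, and both footprint calls were lost in each case (adjusted p between 0.0599 and 0.225). With median-ratio scaling, Tcp1 and Cct4 passed in RNA-seq, and neither passed in footprints (adjusted p = 0.0572 and 0.0874).

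Prefoldin had lower footprints in OLs, with 1 subunit past the test, and no RNA-seq change that passed. None of its 4 measured subunits changed in RNA-seq, with a median log2 fold change of -0.14, while in footprints the median was -0.63 and Pfdn4 fell. In footprints that is 25%, beside 23.6% of all transcripts (10.8% lower), and in RNA-seq 33.2% of all transcripts changed. The difference between the measurements, tested as the change in RD, passed for no subunit (adjusted p between 0.806 and 0.941). Pfdn4 had 284.1 and 333.3 footprint FPKM in OPCs and 154.8 and 199.3 in OLs, a log2 fold change of -0.81 (SE 0.18, adjusted p = 0.0457), and 62.5 and 88.4 against 51.1 and 70.2 FPKM in RNA-seq, where the groups overlapped. Pfdn5, the most abundant of the 4, had 628.5 and 630.9 footprint FPKM in OPCs and 480.5 and 441.1 in OLs (adjusted p = 0.0529, and 0.0364 with the replicates paired), but 158.7 and 147.9 against 158.4 and 174.4 FPKM in RNA-seq. Its footprints were thus lower in both OL replicates, and its RNA was not. The footprints of Pfdn5 also passed with a minimum mean of 5 FPKM. Pfdn2 had 293.3 and 268.9 footprint FPKM in OPCs and 213.1 and 182.2 in OLs (adjusted p = 0.0643, and 0.0376 paired), with RNA-seq between 18.5 and 25.1 FPKM in the 4 libraries. Pfdn6 had 208 and 189.4 against 148.3 and 93.8 footprint FPKM (adjusted p = 0.114), and its RNA, at 53.9 and 72.5 against 33.5 and 52.1 FPKM, passed only with the replicates paired (adjusted p = 0.149 unpaired, 0.0297 paired). The Pfdn4 call was lost without any 1 replicate (adjusted p between 0.0749 and 0.269) and with median-ratio scaling (0.0986). Of the 30-base words of the Pfdn5 coding sequence, 53.8% occur elsewhere in the genome, and part of its transcript overlaps Myg1 on the same strand, so its values are uncertain in level.

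Both cytosolic HSP90 genes fell in RNA-seq, where 20.2% of all transcripts were lower. Hsp90ab1, the constitutive form, had 510 and 536.1 FPKM in OPCs and 291.7 and 332.4 in OLs, a log2 fold change of -0.75 (SE 0.15, adjusted p = 0.0169). Hsp90aa1, the form more inducible by stress, had 151.5 and 186.7 FPKM in OPCs and 92.5 and 118.3 in OLs, a log2 fold change of -0.68 (SE 0.19, adjusted p = 0.0427). The groups did not overlap for either gene, and the ratio of Hsp90ab1 to Hsp90aa1 stayed between 2.81 and 3.37 in the 4 RNA-seq libraries. In footprints, Hsp90ab1 had 1560 and 1533 FPKM in OPCs and 1047 and 1193 in OLs (adjusted p = 0.0732, and 0.039 with the replicates paired), and Hsp90aa1 had 421.9 and 455 against 294.2 and 376 FPKM (adjusted p = 0.161). The RNA-seq calls of both genes were lost without any 1 of the replicates (adjusted p between 0.0779 and 0.222) and with median-ratio scaling (0.0729 for Hsp90ab1 and 0.141 for Hsp90aa1). Of the coding words of Hsp90aa1, 92.1% also occur elsewhere in the genome.

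Within the cytosolic HSP70 and HSP110 families, 2 of 8 tested members (25%) fell in RNA-seq and none rose. Of all transcripts, 20.2% were lower and 13% higher. Hspa8 (HSC70), the constitutive HSP70 and the most abundant member in RNA-seq, had 679.5 and 609.6 FPKM in OPCs and 539.3 and 617.7 in OLs (adjusted p = 0.494), and its footprints, at 1562 and 1646 against 1321 and 1436 FPKM, did not pass either (adjusted p = 0.273). Its RNA-seq values overlapped between the groups, and 95.0% of its coding words occur elsewhere in the genome, which makes its level uncertain. Hsph1, the HSP110 exchange factor, fell in RNA-seq from 36.3 and 40.3 FPKM to 23.2 and 24.5 FPKM (log2 fold change -0.68, SE 0.17, adjusted p = 0.0293), but its footprints overlapped, at 95.1 and 111.5 FPKM in OPCs and 83.4 and 107 in OLs (adjusted p = 0.64). The other HSP110-type genes, Hspa4 and Hspa4l, had adjusted p of 0.784 and 0.576 in RNA-seq. Hspa4 had 92.7 and 116.5 FPKM in OPCs and 93 and 105.5 in OLs, and Hspa4l had between 7.65 and 9.77 FPKM in the 4 libraries. The RNA-seq call of Hsph1 was lost without any 1 of the replicates (adjusted p between 0.0795 and 0.154) and with median-ratio scaling (0.0804).

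The stress-inducible HSP70 genes Hspa1a and Hspa1b were low in both cell types, with higher values in OLs. Hspa1a had 0.888 and 1.44 FPKM in OPCs and 2.88 and 6.36 in OLs in RNA-seq (log2 fold change 1.83, SE 0.57, adjusted p = 0.0552), and 2.65 and 1.94 against 6.73 and 6.68 FPKM in footprints (adjusted p = 0.117). Hspa1b had 1.27 and 2.16 against 2.89 and 7.28 FPKM in RNA-seq (adjusted p = 0.114). With the replicates paired, both passed in RNA-seq (adjusted p = 0.0283 and 0.0484). Hspa1a also passed with median-ratio scaling, and with 1 FPKM added in place of 0.1. The genes share most of their coding sequence (91.3% and 88.6% of their 30-base words occur elsewhere in the genome, and their upstream stretches shown above have the same bases), so the values of one cannot be told from those of the other. Even in OLs they stayed far under Hspa8, whose RNA-seq FPKM was 765 and 424 times that of Hspa1a in OPCs and 187 and 97.2 times in OLs. Hspa1l had between 1.58 and 3.02 FPKM in RNA-seq (adjusted p = 0.582), with most of its transcript overlapped by Gm10501 on the opposite strand.

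The ribosome-associated pair fell in both measurements. Hspa14 is an HSP70 that acts with the J protein Dnajc2 at the ribosome, where both proteins meet nascent chains. Hspa14 had 41.2 and 53.9 FPKM in OPCs and 19.2 and 24.8 in OLs in RNA-seq, and 50.3 and 54.6 against 28.9 and 24.3 FPKM in footprints. Its log2 fold change was -1.11 (SE 0.22, adjusted p = 0.0157) in RNA and -0.98 (SE 0.18, adjusted p = 0.0285) in footprints. Dnajc2 had 23.3 and 36.6 FPKM in OPCs and 9.44 and 8.33 in OLs in RNA-seq, and 29.3 and 32.5 against 12.7 and 13.8 FPKM in footprints, and its log2 fold change was -1.71 (SE 0.28, adjusted p = 0.0078) and -1.22 (SE 0.21, adjusted p = 0.0271). For both genes, all OL values lay under all OPC values. The Hspa14 transcript overlaps Gm45902 on the same strand by 321 bases, and 28.1% of the coding words of Dnajc2 occur elsewhere in the genome. With the replicates paired, the footprint calls were lost (adjusted p = 0.0544 for Hspa14 and 0.0557 for Dnajc2). Both footprint calls were also lost without any replicate but OL replicate 1 (adjusted p between 0.0678 and 0.22). In RNA-seq, Hspa14 lost its call without any replicate but OL replicate 2 (0.0555 to 0.133), and Dnajc2 without OPC replicate 2 or OL replicate 2 (0.0902 and 0.0545).

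The mitochondrial chaperonin fell in OLs. Hspd1 (HSP60) had 185.5 and 221.8 FPKM in OPCs and 47.8 and 63 in OLs in RNA-seq, and 506.7 and 545.1 against 119.5 and 170.1 FPKM in footprints. The OL values lay far below the OPC values in each measurement, and the log2 fold change was -1.88 in both (SE 0.20 and 0.21, adjusted p = 0.00235 and 0.0109), a 3.69-fold and a 3.68-fold difference. Its partner Hspe1 (HSP10) had 344.6 and 372 FPKM in OPCs and 172.8 and 218.1 in OLs in RNA-seq, a log2 fold change of -0.88 (SE 0.17, adjusted p = 0.0143). The groups did not overlap, and the ratio of Hspe1 to Hspd1 was 1.86 and 1.68 in OPCs and 3.62 and 3.46 in OLs. The genes share the stretch between their start sites shown above, and its part in their levels was not tested. The RNA-seq call of Hspd1 was lost only without OPC replicate 2 (adjusted p = 0.0571), and its footprint call without OPC replicate 1 or 2 (0.132 and 0.141). The call of Hspe1 was lost without any 1 of the replicates (adjusted p between 0.0507 and 0.121) and with median-ratio scaling (0.0536). Of the coding words of these genes, 80.9% (Hspd1) and 84.8% (Hspe1) occur elsewhere in the genome, and 112 bases of Hspe1 overlap Hspd1 on the opposite strand, in libraries whose counting is not stated to use strand.

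The footprints of Hspe1 were uneven. They came to 1303 and 1308 FPKM in OPCs, 457.2 FPKM in OL replicate 1 and 0 in OL replicate 2, where the level of OL replicate 1 would have given an estimated 438 reads. Since the RNA was at 218.1 FPKM in that culture, the 0 is given as listed and no fold is drawn from it. Only 5 of the 1019 transcripts with at least 100 FPKM in the other 3 footprint libraries were listed at 0 in this one. Without OL replicate 2, the log2 fold change of Hspe1 footprints was -1.51 (adjusted p = 0.0475).

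**Figure D2:**
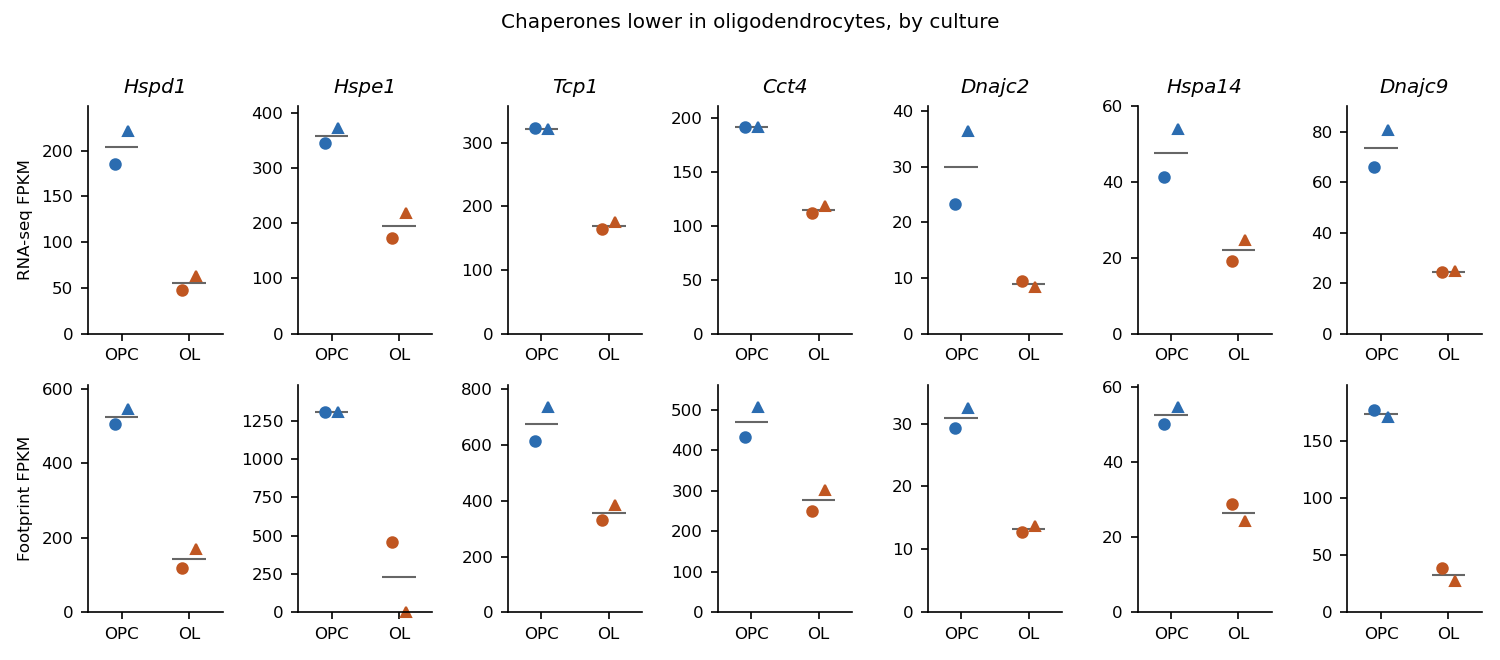
RNA-seq FPKM (upper row) and footprint FPKM (lower row) of 7 chaperone genes in OPCs (blue) and OLs (orange), with replicate 1 as circles, replicate 2 as triangles and the mean of a group as a line. OL points lie under OPC points in each panel, and the Hspe1 footprints of OL replicate 2 lie at 0.

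The J proteins, which bring clients to HSP70 and start its cycle, formed the largest group, and few of them passed the test. Of 27 tested in RNA-seq, 3 fell (Dnajc2, Dnajc9 and Dnajc11) and 1 rose (Dnajc6), and of 26 tested in footprints, 2 fell (Dnajc2 and Dnajc9) and 1 rose (Dnajb2). That is 14.8% in RNA-seq, beside 33.2% of all transcripts, and 11.5% in footprints, beside 23.6%. Their median log2 fold change in RNA-seq was -0.31, and in footprints -0.20. None of the 2 tested class A and 6 tested class B genes passed in RNA-seq with the settings given above. Dnaja1, a main cytosolic partner of HSP70, had 50 and 59.2 FPKM in OPCs and 70.8 and 68.8 in OLs (adjusted p = 0.142), and Dnajb6, a suppressor of aggregation, had between 27.7 and 35.1 FPKM in the 4 libraries (adjusted p = 0.497). Of their coding words, 95.1% (Dnaja1) and 98.9% (Dnajb6) occur elsewhere in the genome, so these levels are uncertain too. None of the 7 J proteins of the ER passed with these settings, and of the 5 of mitochondria Dnajc11 did in RNA-seq. Dnajb14 of the ER had 4.06 and 3.45 FPKM in OPCs and 7.64 and 5.97 in OLs in RNA-seq (adjusted p = 0.0961). It passed as higher with median-ratio scaling (0.0483). The footprints of Dnajc25, also of the ER, passed as lower when no variance trend was fitted.

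Dnajc9, a J protein that handles histones, had the lowest adjusted p of the footprint calls among members. It had 66.2 and 80.8 FPKM in OPCs and 24.3 and 24.6 in OLs in RNA-seq (log2 fold change -1.58, SE 0.18, adjusted p = 0.00274), and 176.6 and 170.6 against 38.7 and 27.1 FPKM in footprints (log2 fold change -2.42, SE 0.21, adjusted p = 0.00777). Both differences were well outside the spread between replicates. Proliferation markers were lower in the same OL libraries, as given above, and their part in this result was not tested. The RNA-seq call was lost only without OPC replicate 2 (adjusted p = 0.0508), and the footprint call without OPC replicate 1 or 2 (0.118 and 0.123). Dnajc11, a protein of the mitochondrial membranes, fell in RNA-seq from 31.6 and 33.6 FPKM to 22.2 and 21.5 FPKM (log2 fold change -0.57, SE 0.17, adjusted p = 0.0487), a call that did not hold without any 1 of the replicates (0.0926 to 0.194) or with median-ratio scaling (0.127). Dnajc10, an ER reductase, did not pass in RNA-seq (52 and 50.8 against 32.4 and 38.8 FPKM, adjusted p = 0.059), but did with the replicates paired (0.048) or with a minimum mean of 5 FPKM (0.0477).

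The J proteins that rose had values that differed widely between replicates. Dnajc6 (auxilin), which uncoats clathrin vesicles with HSC70, had 0.123 and 0.0701 FPKM in OPCs and 3.61 and 1.52 in OLs in RNA-seq, a log2 fold change of 3.65 (SE 0.89, adjusted p = 0.0273). The OPC values correspond to an estimated 5.27 and 2.07 reads, and the footprints were listed at 0, 0, 7.21 and 0 FPKM, so that no fold is given for them. The RNA-seq call was lost without OPC replicate 1 or 2 (adjusted p = 0.0898 and 0.116), and without OL replicate 1 the gene was under the minimum of 1 FPKM and was not tested. Dnajb2, which binds ubiquitinated clients and is known from neurons, rose in footprints from 12.8 and 6.9 FPKM to 120.7 and 77.2 FPKM (log2 fold change 3.35, SE 0.41, adjusted p = 0.0138). In RNA-seq it had 5.71 and 0.634 FPKM in OPCs and 39.8 and 2.79 in OLs, so that replicate 1 exceeded replicate 2 in both cell types and the groups overlapped (adjusted p = 0.249, and 0.00303 with the replicates paired). The footprint call was lost without OPC replicate 1, OPC replicate 2 or OL replicate 2 (adjusted p = 0.107, 0.123 and 0.0679).

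Several J proteins were listed at 0 in 1 or more libraries. In footprints of OL replicate 2, the shallowest footprint library, Dnajc13 (an endosomal protein), Dnajc17 and Dnajc21 were at 0, beside 6.37, 18 and 3.95 FPKM in OL replicate 1. In RNA-seq they had 6.32, 0 and 2.09 FPKM in OL replicate 2. Dnajc17 had 5.23 and 2.28 FPKM in OPCs and 1.81 FPKM in OL replicate 1 in RNA-seq, and did not pass (adjusted p = 0.154), but did with the replicates paired (0.0348) or without OL replicate 1 (0.0125). Dnajc4 was at 0 in OPC replicate 2 and OL replicate 2 of RNA-seq and in all footprint libraries but OL replicate 1 (3.65 FPKM). Dnaja4 and Dnajb7 were under 1 FPKM in each RNA-seq library. A 0 at these depths does not show that a gene is silent.

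The BAG proteins moved in opposite directions. Most BAG proteins carry a domain that releases nucleotide from HSP70 and direct it to different fates. Of the 5 measured, 4 changed in RNA-seq, 3 lower and 1 higher. In RNA-seq that is 80%, beside 33.2% of all transcripts, and in footprints it was 20%, beside 23.6%. Bag1, which links HSP70 to the proteasome, rose from 48.8 and 57.5 FPKM in OPCs to 108.3 and 107.2 FPKM in OLs (log2 fold change 1.02, SE 0.16, adjusted p = 0.00688). Bag3, which directs HSP70 clients to autophagy and is induced by stress, fell from 10.7 and 5.82 FPKM to 1.34 and 0.546 FPKM (log2 fold change -3.05, SE 0.58, adjusted p = 0.0129). Bag1 thus exceeded Bag3 by 4.55 and 9.88 times in OPCs and by 80.8 and 196 times in OLs. In footprints, Bag3 fell as well, from 32.3 and 26.8 FPKM to 4.37 and 0.905 FPKM (log2 fold change -3.80, SE 0.83, adjusted p = 0.0449), the last value resting on an estimated 4.87 reads. The footprints of Bag1, 33.9 and 26.9 FPKM in OPCs and 58.6 and 28 in OLs, did not pass (adjusted p = 0.489), and the difference between its 2 measurements was itself not past the threshold (change in RD, adjusted p = 0.875).

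Bag2, an inhibitor of the ubiquitin ligase CHIP, fell in RNA-seq from 12.3 and 16.3 FPKM to 3.63 and 6.13 FPKM (log2 fold change -1.56, SE 0.35, adjusted p = 0.0207), and its footprints had 44.2 and 32.6 against 17.4 and 23.5 FPKM (adjusted p = 0.0885). Bag5 fell in RNA-seq from 22.5 and 26.8 FPKM to 15 and 14.6 FPKM (log2 fold change -0.73, SE 0.20, adjusted p = 0.0371). Bag6, which triages proteins that miss their membrane, had 62.5 and 53 FPKM in OPCs and 82.2 and 76.2 in OLs in RNA-seq (adjusted p = 0.0798) and passed with median-ratio scaling, in which Bag5 did not (0.0796). None of the 4 BAG calls in RNA-seq held without OPC replicate 1 (adjusted p between 0.0603 and 0.134) or OPC replicate 2 (0.0534 to 0.2), and 3 of 4 held without OL replicate 1 and without OL replicate 2, where Bag5 did not (0.0768 and 0.109). The footprint call of Bag3 held without OL replicate 1 (adjusted p = 0.00915) and was lost without each of the other replicates (0.0504 to 0.293).

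Small heat shock proteins hold unfolding proteins in reach of HSP70, and 4 of the 6 measured were low or near absent. Hspb1, Hspb3 and Hspb9 averaged under 1 FPKM in RNA-seq and were not tested there, and Hspb6 was listed at 0 in all 4 footprint libraries beside 0.501 to 2.22 FPKM in RNA-seq. Hspb11 was higher than these and rose in RNA-seq from 26.6 and 32.1 FPKM in OPCs to 55.8 and 67 FPKM in OLs (log2 fold change 1.06, SE 0.19, adjusted p = 0.0105), with no overlap. As background, Hspb11 is a part of the intraflagellar transport machinery of cilia (IFT25) and is not known as a chaperone of the usual kind. Its footprints, at 75.3 and 65.4 FPKM in OPCs and 102.5 and 169.5 in OLs, did not pass (adjusted p = 0.0957). The RNA-seq call held without OL replicate 1 only (adjusted p = 0.0244) and was lost without the others (0.0605 to 0.0842). Hspb8, a partner of Bag3, had 3.2 and 1.09 FPKM in OPCs and 9.5 and 2.45 in OLs in RNA-seq, with overlapping groups (adjusted p = 0.247).

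**Figure D3:**
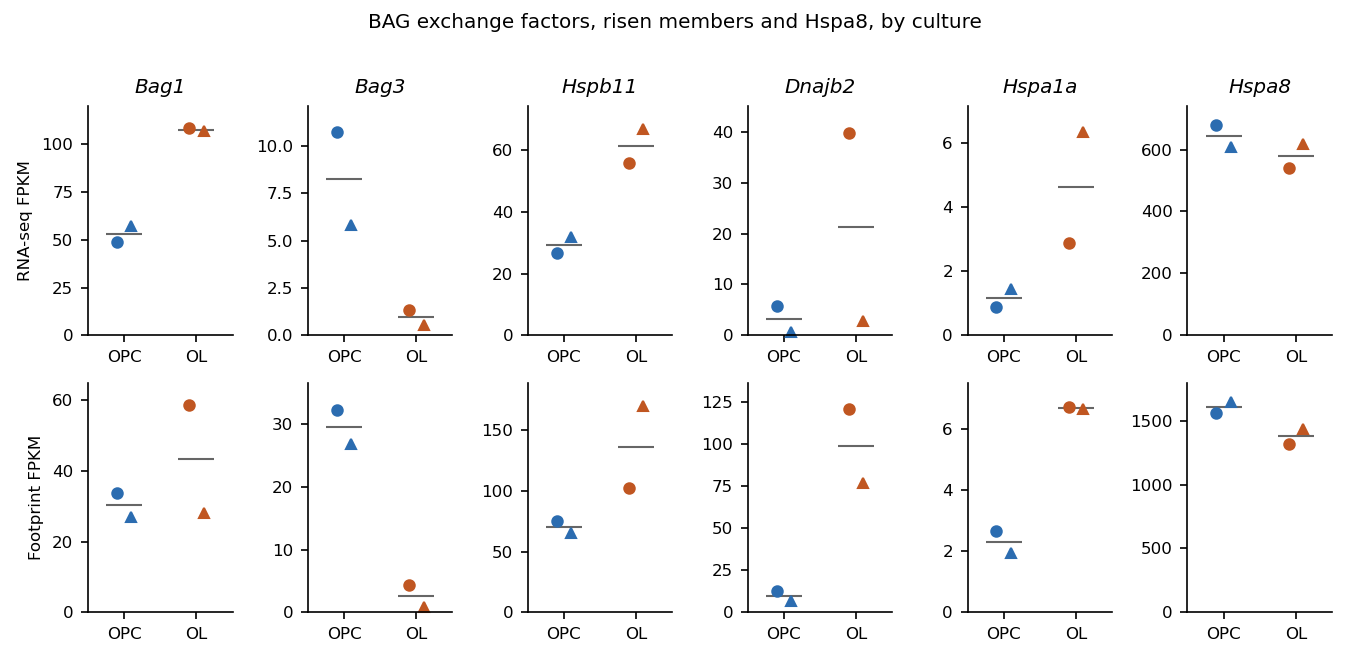
RNA-seq FPKM (upper row) and footprint FPKM (lower row) of Bag1, Bag3, Hspb11, Dnajb2, Hspa1a and Hspa8 in OPCs (blue) and OLs (orange), with replicate 1 as circles, replicate 2 as triangles and the mean of a group as a line. Bag1 RNA lies above 100 FPKM in both OL replicates and under 60 FPKM in both OPC replicates, Bag3 lies the other way, and Hspa8 RNA overlaps between the groups.

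Ribosome density did not change for any member past the adjusted threshold, in a fit where 1 of 8056 transcripts (0.0124%) did. At an unadjusted p under 0.05, 2 of the 54 tested members appeared, Pfdn5 and Dnajc9, beside 4.8% of all transcripts. The members had a median RD of 2.56 and 2.46 in OPCs and 2.5 and 2.33 in OLs, above the medians of all transcripts (1.72, 1.77, 2.02 and 1.95). The highest RD in 3 of the 4 cultures was that of Pfdn2, at 14.6 and 12.2 in OPCs and 11.5 in OL replicate 1, and 7.27 in OL replicate 2. The Pfdn2 transcript overlaps Klhdc9 on the opposite strand by 535 bases.

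For Pfdn5, RD was 3.96 and 4.26 in OPCs and 3.03 and 2.53 in OLs, a change of -0.57 in log2 RD (SE 0.16, adjusted p = 0.806). For Dnajc9 it was 2.67 and 2.11 in OPCs and 1.59 and 1.1 in OLs, a change of -0.85 (SE 0.28, adjusted p = 0.875). In both genes the OL values lay under the OPC values. The 4 prefoldin subunits had changes between -0.57 and -0.17 with a median of -0.52, beside a median of 0.10 over all transcripts, whereas Hsp90aa1 and Hsp90ab1 had changes of 0.29 and 0.28 and the 5 TRiC subunits lay between -0.03 and 0.16. Hspd1, at 2.73 and 2.46 in OPCs and 2.5 and 2.7 in OLs, had a change of 0.0031 on the same scale. None of these passed, and such a p does not show that the densities were the same.

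**Figure D4:**
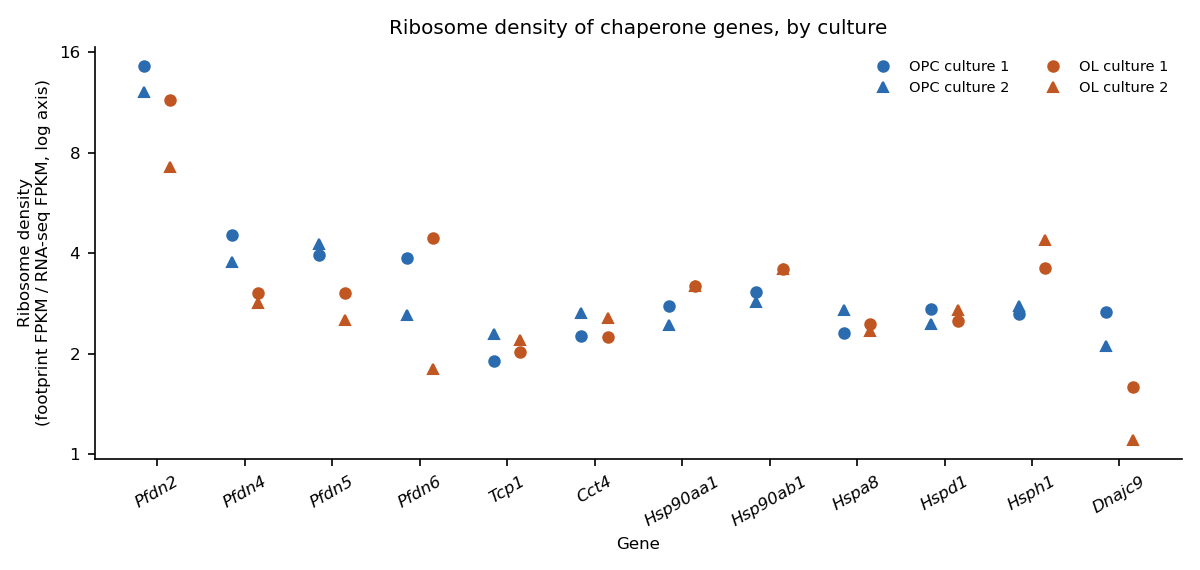
Ribosome density (y axis, footprint FPKM over RNA-seq FPKM, log axis) of 12 chaperone genes in each culture, with OPCs in blue, OLs in orange, replicate 1 as circles and replicate 2 as triangles. OL points lie under OPC points for Pfdn2, Pfdn4, Pfdn5 and Dnajc9 and above them for Hsp90aa1, Hsp90ab1 and Hsph1, and they overlap for Tcp1, Cct4 and Hspd1.

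Genes known to be induced by heat shock through HSF1 fell where they passed the unpaired test with the settings given above, but not in every other setting. The list shares most genes with the members, and of its 13 tested genes 7 fell and 0 rose in RNA-seq (Bag3, Fkbp4, Hsp90aa1, Hsp90ab1, Hspd1, Hspe1 and Hsph1), with a median log2 fold change of -0.68, beside 20.2% of all transcripts lower and 13% higher. In footprints 2 fell, Bag3 and Hspd1, and the median was -0.22. Hspa1a and Hspa1b, also on the list, had higher values in OLs and passed in RNA-seq with the replicates paired, as given above. Unpaired, Hspa1a also passed as higher when 1 FPKM was added in place of 0.1. With median-ratio scaling, Hsp90aa1, Hsp90ab1, Hspe1 and Hsph1 did not pass and Hspa1a did as higher (adjusted p = 0.0488). Hsf1 itself had 36.7 and 28.3 FPKM in OPCs and 26.7 and 36.2 in OLs in RNA-seq (adjusted p = 0.887). Of the members with a promoter holding 3 units, Hspd1 and Hspe1, which share the same stretch, and Hsph1 fell in RNA-seq, and Dnajb6 did not pass. Over all transcripts, 20.2% were lower. Of the tested members with only a pair of units, Bag3 fell. Dnaja1, Dnajb4, Dnajc10, Hspa1a, Hspa1b, Hspb6 and Hspb8 did not pass with the settings given above. Whether the repeats bear on these changes was not tested. The list of heat shock genes was drawn up with results of these samples known and is no independent evidence of a direction.

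Co-chaperones and partners outside the members passed the test about as often as transcripts in general, but only as lower in OLs. Of 32 tested, 10 fell and 0 rose in RNA-seq (31.2%, beside 33.2% of all transcripts in either direction). In footprints 7 fell and 0 rose (21.9%, beside 23.6%). By direction, 20.2% of all transcripts were lower and 13% higher in RNA-seq, and 10.8% lower and 12.8% higher in footprints. The partners had median log2 fold changes of -0.31 in RNA-seq and -0.49 in footprints. The transcript with the lowest fold was Tbce, a tubulin cofactor, at 9.79 and 10 FPKM in OPCs, 1.66 FPKM in OL replicate 1 and 0 in OL replicate 2, for which no fold is given. Fkbp4, a prolyl isomerase on HSP90, fell in RNA-seq from 136.2 and 138.7 FPKM to 60.9 and 52.7 FPKM (log2 fold change -1.28, adjusted p = 0.00339). Nudc, Ruvbl1 and Nudcd3, which also work with HSP90, fell by 1.22, 1.19 and 1.16 on the log2 scale (adjusted p = 0.0121, 0.0167 and 0.00845), and in footprints as well. Ptges3 (p23), which stabilizes HSP90 on its clients and was picked for this role after its values were seen, fell in RNA-seq from 204.2 and 197.6 FPKM to 92.2 and 90.9 FPKM (adjusted p = 0.00358). Its OL replicates lay closer to each other than to any OPC value. The list was drawn up with results of these samples known, too.

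Summed over the members, RNA-seq FPKM was 4375 and 4633 in OPCs and 3125 and 3499 in OLs, or 1.39% and 1.49% against 1.13% and 1.31% of all listed FPKM. The 5 TRiC subunits held 28.4% and 28% of the members' RNA-seq FPKM in OPCs and 23.7% and 24.8% in OLs, and Hspd1 held 4.24% and 4.79% against 1.53% and 1.8%. Hspa8 held 15.5% and 13.2% in OPCs and 17.3% and 17.7% in OLs, and the BAG proteins 3.58% and 3.44% against 6.73% and 5.85%. In footprints, the members summed to 11650 and 12440 FPKM in OPCs and 8284 and 8457 in OLs, the last without any Hspe1. These were 1.3% and 1.48% of all listed footprint FPKM in OPCs and 1.12% and 1.27% in OLs. Without Hspe1, the shares overlapped, at 1.15% and 1.33% in OPCs and 1.06% and 1.27% in OLs. The OL sums lay under the OPC sums in both measurements, with replicates closer to each other than to the other cell type. For the shares of all FPKM this did not hold, since OL replicate 2 lay closer to OPC replicate 1 than to OL replicate 1. Among the members, 12 had an RNA-seq mean of 100 FPKM or more and 7 a mean under 1 FPKM, so that a few genes set these sums. Those under 1 FPKM on average were Cct8l1, Dnaja4, Dnajb7, Hspa12b, Hspb1, Hspb3 and Hspb9.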

How the data were processed

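Members and gene lists were chosen with earlier results of these data known. The authors deposited FPKM for canonical coding transcripts mapped to GRCm38, counted over full transcripts in RNA-seq and over coding sequences in footprints. The submitters' processing notes name HISAT2 2.1.0 and StringTie 1.3.5. Read counts were not used. The 8 libraries were fitted as deposited with limma 3.58.1 in R 4.3.3, over the whole set of transcripts, on log2(FPKM + 0.1) with a mean-variance trend in eBayes and with a minimum mean of 1 FPKM. RNA-seq and footprints were fitted apart, and RD changes were tested as an interaction across both. Tests were two-sided, and fold changes understate the change of low genes. The p-values rest only on the spread between 2 replicates of each cell type, moderated by a spread shared across transcripts.

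The study states that OLs were differentiated from the corresponding OPC replicates. Deviations of same-numbered replicates from their group means correlated at 0.108 (RNA-seq), 0.086 (footprints) and 0.0604 (RD) over transcripts, and paired values come from a fit with the replicate number as a term. Depth was estimated from the 1500 lowest values of a library, and reads were taken as 30 bases long, so both are approximate. Gene models are from Gencode vM21, in which all 63 members were found, and promoters from RefSeq.

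Named with values were the members outside the J proteins, the J proteins past the threshold with the same direction in both same-numbered pairs, members at an unadjusted RD p under 0.05 or listed at 0, and the 5 largest falls among the partners. Dnaja1, Dnajb6, Dnajb14, Dnajc10, Hsf1 and Ptges3 lie outside this rule and were chosen after their values were seen. The alternatives were another pseudocount or minimum, scaling by median ratios, no trend, the pairing, RD per culture and leaving out each replicate. The fits were tested on simulated data. Some marker results are not reported here.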

Additional observations from a re-analysis of the deposited data

How the results depend on the processing

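Without the variance trend, 10 members passed in RNA-seq and 5 in footprints, where 1036 of all transcripts then passed. Leaving out 1 replicate gave 0 to 14 members in RNA-seq, 0 to 14 in footprints and 0 to 2 in RD, and 364 to 2599, 0 to 3442 and 0 to 883 of all transcripts. For RD, 3 of all transcripts passed with median-ratio scaling, 14 without the trend, 0 with the replicate block and 0 with RD per culture. With the replicate block (paired replicates), 25 members passed in RNA-seq (beside 39.8% of all transcripts), 13 in footprints (beside 20.8% of all) and 0 in RD, and member calls not named with a paired value in the report did not change. The median RD change of the members, -0.01, became 0.0073 with no minimum, 0.0052 with a minimum of 5 FPKM and 0.0111 without members at 0, and -0.0992 to 0.2102 over the replicates left out. Bag1 footprints ranged from -0.1077 to 0.9518 and Hsph1 footprints from -0.3033 to 0.055 (log2), both changing sign without OL replicate 1. Of the 18 RNA-seq and 9 footprint calls of members, none held in each of the 11 settings, and none turned its sign in any setting that gave a value. Partners outside the members were not refitted gene by gene. The causes were not tested. Shares and spreads within a library cannot change with scaling and were not rerun.

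Depth limits the lowest genes, such as Bag3 and Dnajc6 with a few reads in some libraries, and the zeros of OL replicate 2, the shallowest library of each kind. A left-out replicate leaves 1 sample in a group, which is assumed to vary like the other group.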
